A study of Trichoderma reesei with 9 samples.

Results

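Hydrophobin transcripts of the cellulase-producing mould Trichoderma reesei were followed in 2 strains that each lack a gene of vacuolar protein sorting and in their parent. The hydrophobins were taken as every gene of the deposited count table whose description contains the word hydrophobin or whose name begins with hfb. This gave 4 of 10348 genes: hfb1, hfb2, hfb3 and TRIREDRAFT_106538, the last described as a class II hydrophobin. Of these, 3 had enough counts to be tested and hfb1 did not. Membership rests on these names and descriptions, since no protein or promoter sequence was used here.

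Hydrophobins are small secreted proteins of filamentous fungi. They assemble at the boundary between water and air or a solid, lower the surface tension of the medium, and coat aerial hyphae and spores with a water-repellent layer. A conserved set of cysteines, paired in disulfide bridges, holds their fold together, so the proteins must pass through the endoplasmic reticulum before they are exported. In Trichoderma reesei, HFBI is known from vegetative mycelium and from glucose-grown cultures, and HFBII from cultures on cellulose and other plant polymers and from the spore surface. HFBI and HFBII belong to class II, whose films dissolve more easily than those of class I.

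Poly-A RNA of mycelia was sequenced from 9 libraries, 3 per strain. The deletion strains are Rut-C30-delta-vps13 (Δvps13) and Rut-C30-delta-vps21 (Δvps21), and the third group is Rut-C30 itself. The labels call Rut-C30 the wild type, although it is a mutagenised line, selected for high cellulase secretion, whose changes all 3 groups share. All mycelia had been induced with Avicel, a microcrystalline cellulose, for 96 h. In yeast, Vps13 carries lipids between membranes at contact sites and Vps21 is a Rab5-type GTPase of the endosome. The labels do not say how the deletions were made, how many transformants were sequenced and whether replicates came from separate cultures. P values therefore measure only the spread between these libraries, which may be technical.

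Totals ran from 12127372 to 13493219 counts per library. The Δvps13 libraries did not form a tight group. On the first principal component of all tested genes, which held 52.2% of the variance, Δvps13 replicates 1 and 2 lay at 14.3 and 9.09 and Δvps13 replicate 3 at -43.8, whereas the Δvps21 libraries lay at 49.2 to 63.1 and the Rut-C30 libraries at -53.0 to -49.1. The second component held 19.4% of the variance. On it Δvps13 replicates 1, 2 and 3 lay at -69.1, -29.2 and 11.1. The Δvps21 libraries lay there at 5.16 to 32.5 and the Rut-C30 libraries at 6.47 to 11.9. Replicates 1 and 2 of Δvps13 thus did not lie together either. The scaling factor of Δvps13 replicate 3 was the lowest of the 9, at 0.699. No gene is named or described as vps13 or vps21. Of 2 genes described as rab5-like GTPases, TRIREDRAFT_123015 had 2 counts in each Δvps21 library, against 1147 to 1740 counts in the Δvps13 and 1365 to 1607 counts in the Rut-C30 libraries. The loss of the vps13 transcript was not followed.

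The 4 genes lie on 4 different sequences of the assembly. In the coordinates of the deposited table, hfb2 spans NW_006711149.1 17118 to 17828 on the plus strand and hfb3 spans NW_006711176.1 139836 to 140658 on the plus strand. TRIREDRAFT_106538 spans NW_006711154.1 951642 to 952129 on the minus strand, and hfb1 spans NW_006711153.1 1048937 to 1049645 on the plus strand. The length over which reads were scaled was 569 bases for hfb2, 682 for hfb3, 359 for TRIREDRAFT_106538 and 575 for hfb1, which is 129 to 142 bases less than each span. None of the 4 overlaps another annotated gene.

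Levels are given first as FPKM, fragment counts scaled by the authors for gene length and library, because these can be compared between genes of different length. The gene hfb2, which encodes HFBII, was the most abundant hydrophobin transcript in all 9 libraries. It had 5723, 14079.9 and 2461 FPKM in Δvps13, 10719, 16127 and 12712 FPKM in Δvps21, and 5793, 4578 and 4681 FPKM in Rut-C30. All 3 Δvps21 libraries lay above all 3 Rut-C30 libraries, but the share of all genes that do so was not counted. Of the Δvps13 libraries, replicate 1 lay inside the Rut-C30 range, replicate 2 lay within the Δvps21 range, and replicate 3 was the lowest of all 9. Mean levels were 7421 ± 5993 FPKM in Δvps13, 13186 ± 2735 FPKM in Δvps21 and 5017 ± 674 FPKM in Rut-C30 (SD, n = 3 each). Among the 10348 genes of the table, hfb2 ranked between 4 and 7 by FPKM in the Δvps21 libraries and between 13 and 22 in the Rut-C30 libraries. In Δvps13 its ranks were 11, 8 and 66.

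The gene hfb3, described as a hydrophobin, came next in most libraries. It had 1363, 3959 and 793 FPKM in Δvps13, 2688, 4240.05 and 3419 FPKM in Δvps21, and 1451, 1356 and 1467.5 FPKM in Rut-C30. Again the Δvps21 libraries all lay above those of Rut-C30, while in Δvps13 replicate 2 lay above the Rut-C30 libraries, replicate 3 lay below them and replicate 1 lay inside their range. Means were 2038 ± 1687 FPKM in Δvps13, 3449 ± 777 FPKM in Δvps21 and 1425 ± 60.0 FPKM in Rut-C30 (SD, n = 3 each).

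TRIREDRAFT_106538, the gene described as a class II hydrophobin, varied most. It had 217, 649 and 12.1 FPKM in Δvps13, 2869, 3369 and 2881 FPKM in Δvps21, and 19.1, 17.7 and 21.9 FPKM in Rut-C30. The raw counts behind these values were 1216, 2611 and 37 in Δvps13, 14498, 15057 and 12114 in Δvps21, and 111, 92 and 104 in Rut-C30. The Δvps21 libraries stood above all others by a wide margin and close to each other. In Δvps13, replicates 1 and 2 lay between the Δvps21 and Rut-C30 libraries, and replicate 3 lay below every Rut-C30 library. By FPKM the gene ranked between 26 and 37 of 10348 in the Δvps21 libraries and between 3309 and 3737 in those of Rut-C30.

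The gene hfb1, which encodes HFBI, was barely detected. It had 0, 4 and 0 counts in Δvps13, 0, 1 and 0 counts in Δvps21, and 0 counts in each Rut-C30 library. In the 7 libraries without a count, a limit of 3 counts per library allows a level of up to 0.190 to 0.354 CPM (counts scaled to a common library size), which covers counting error only. A difference between the strains was not detectable at this depth. The nearest gene on its right, TRIREDRAFT_59359, described as a predicted protein and 1430 bases away, had 42.7 to 79.5 CPM in the Δvps13, 60.1 to 68.6 CPM in the Δvps21 and 46.0 to 59.7 CPM in the Rut-C30 libraries.

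**Figure D1:**
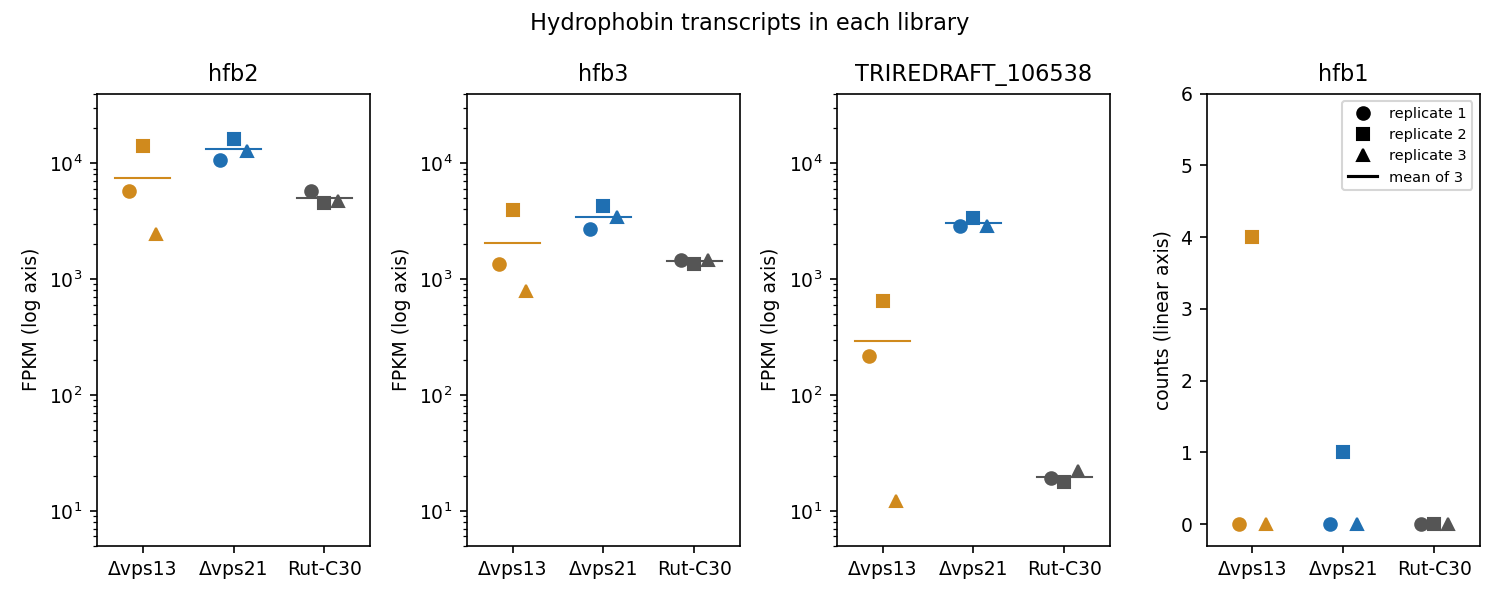
Levels of the 4 hydrophobin genes in each library, as FPKM on a log axis (hfb1 as counts on a linear axis), by strain, with 1 point per library and, except for hfb1, a line at the mean of 3. The Δvps21 points of hfb2, hfb3 and TRIREDRAFT_106538 lie above all Rut-C30 points, the Δvps13 points are spread widely, and hfb1 reaches 4 counts at most.

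The spread of Δvps13 was large for all 3 expressed hydrophobins. After scaling, the highest Δvps13 library exceeded the lowest by 5.61 times for hfb2, by 4.90 times for hfb3 and by 52.7 times for TRIREDRAFT_106538. Among the Δvps21 libraries these ratios were 1.51 for hfb2, 1.58 for hfb3 and 1.18 for TRIREDRAFT_106538, and among the Rut-C30 libraries they were 1.28, 1.09 and 1.22 for the same genes in that order. The SD of log2 CPM between the Δvps13 libraries was 1.24 for hfb2, 1.17 for hfb3 and 2.94 for TRIREDRAFT_106538, beside a median of 0.51 over all tested genes. It was larger than that of 92.3% of tested genes for hfb2, 90.5% for hfb3 and 99.9% for TRIREDRAFT_106538. All 3 genes had the same order in Δvps13, with replicate 2 highest and replicate 3 lowest.

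The balance between hfb2 and hfb3 was narrow. The hfb2 level per length was 4.20, 3.56 and 3.10 times that of hfb3 in Δvps13, 3.99, 3.80 and 3.72 times in Δvps21, and 3.99, 3.37 and 3.19 times in Rut-C30. The 3 strains overlapped, although hfb2 itself ranged from 2461 to 16127 FPKM. The balance with TRIREDRAFT_106538 was not held. The hfb3 level was 6.28, 6.10 and 65.7 times that of TRIREDRAFT_106538 in Δvps13, 0.937, 1.26 and 1.19 times in Δvps21, and 76.1, 76.6 and 67.0 times in Rut-C30. Δvps13 replicate 3 thus had a ratio just below the Rut-C30 range, and the other Δvps13 libraries lay between the strains.

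Summed over the 4 genes, hydrophobins reached 7303, 18688 and 3266 FPKM in Δvps13, 16276, 23737 and 19012 FPKM in Δvps21, and 7263, 5952 and 6171 FPKM in Rut-C30. As a share of all counts they took 0.515, 0.909 and 0.137% in Δvps13, 0.963, 1.30 and 0.987% in Δvps21, and 0.526, 0.399 and 0.392% in Rut-C30. TRIREDRAFT_106538 made up 2.97, 3.47 and 0.369% of the summed FPKM in Δvps13, 17.6, 14.2 and 15.2% in Δvps21, and 0.262, 0.298 and 0.355% in Rut-C30. The share of hfb2 was 75.3 to 78.4% in Δvps13, 65.9 to 67.9% in Δvps21 and 75.9 to 79.8% in Rut-C30. Within each library of Δvps13 and of Rut-C30 the order was hfb2, hfb3, TRIREDRAFT_106538, with hfb1 last. In Δvps21 the levels of hfb3 and TRIREDRAFT_106538 did not differ beyond their spread, at 3449 ± 777 and 3039.7 ± 286 FPKM (SD, n = 3 each).

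**Figure D2:**
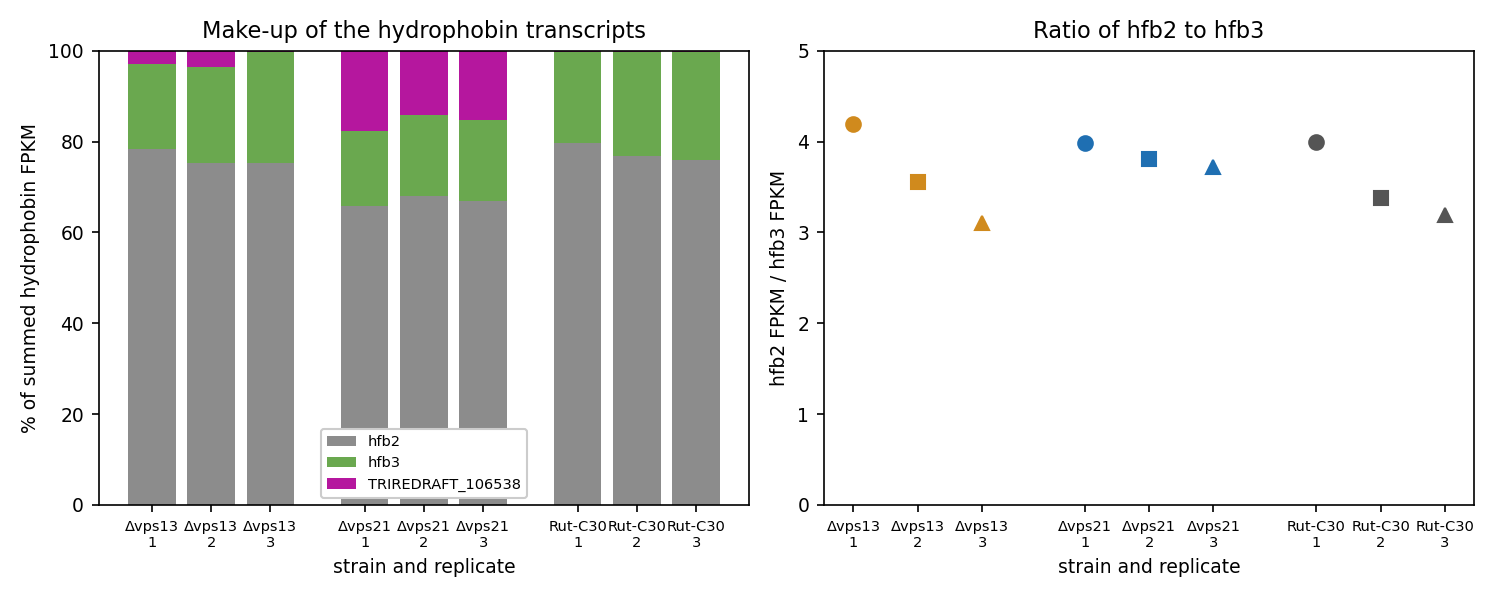
Left, the share of the summed hydrophobin FPKM (percent, bars from 0) held by hfb2, hfb3 and TRIREDRAFT_106538 in each library. Right, the ratio of hfb2 to hfb3 FPKM in each library: it stays between 3.10 and 4.20 in all 9, while TRIREDRAFT_106538 takes 14.2 to 17.6% in Δvps21 and under 4% elsewhere.

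Δvps13 was set against Rut-C30 to see how the hydrophobins stand without vps13. Here and below, "called" means an adjusted p under 0.05 in edgeR's quasi-likelihood test, fitted over all 9 libraries and 8906 genes with Benjamini-Hochberg adjustment. Both deletion strains were compared with the same 3 Rut-C30 libraries. In Δvps13, TRIREDRAFT_106538 rose and hfb2 and hfb3 were not called. Thus 1 of the 3 tested hydrophobins was called higher and 0 lower, beside 10.4% of all tested genes called in either direction, 5.65% higher and 4.75% lower. By DESeq2 the count was also 1, beside 18.2% of all tested genes called. TRIREDRAFT_106538 averaged 104 ± 115 CPM in Δvps13 and 7.09 ± 0.708 CPM in Rut-C30 (SD, n = 3 each), 14.7-fold higher (log2 3.88, SE 0.93, adjusted p = 0.0259). That difference ranked 15 from the highest among all tested genes. It was higher in 2 of the 3 Δvps13 libraries and lower in the other, so the groups overlap.

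The Δvps13 call of TRIREDRAFT_106538 depended on single libraries. Without Δvps13 replicate 2 its rise was 5.84-fold (adjusted p = 0.0886), and without Rut-C30 replicates 1, 2 or 3 the adjusted p was 0.104, 0.115 or 0.0947. In a fit of Δvps13 and Rut-C30 alone it was 0.0792, and by limma on log2(FPKM + 1) it was 0.134. Without Δvps13 replicate 3, which lay beside Rut-C30 on the first principal component, the rise was 21.9-fold (log2 4.45, SE 0.38, adjusted p = 7.23e-06). In that fit 35.8% of all tested genes were called.

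The other tested hydrophobins did not separate Δvps13 from Rut-C30. The log2 difference of hfb2 was 0.54 (SE 0.51, 95% interval -0.59 to 1.66, adjusted p = 0.515), at 4191 ± 3357 CPM in Δvps13 and 2888 ± 425 CPM in Rut-C30. That of hfb3 was 0.49 (SE 0.48, 95% interval -0.56 to 1.55, adjusted p = 0.527), at 1380 ± 1133 CPM in Δvps13 and 982 ± 42.2 CPM in Rut-C30 (SD, n = 3 each). Without Δvps13 replicate 2 both differences turned round, to -0.31 for hfb2 and -0.41 for hfb3. In CPM, hfb3 in Δvps13 replicate 1 (925) lay just below the lowest Rut-C30 library (934), whereas by FPKM it lay inside their range. The intervals include no change and changes of over 2 times, so these libraries do not settle the direction.

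Δvps21 was set against Rut-C30 in the same way. In it TRIREDRAFT_106538 rose 154-fold, at 1091 ± 108 CPM in Δvps21 and 7.09 ± 0.708 CPM in Rut-C30 (SD, n = 3 each; log2 7.26, SE 1.08, adjusted p = 7.72e-04). It was higher in 3 of 3 libraries, and 11 of the 8906 tested genes had a larger log2 rise. The call held in all 19 alternative fits, with adjusted p from 7.14e-13 to 0.00755. In bulk mycelium, more hyphae that express the gene and more RNA per hypha cannot be told apart.

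Levels of hfb2 and hfb3 were higher in all 3 Δvps21 libraries than in any Rut-C30 library, but neither was called in the fit over 9 libraries. The share of all tested genes whose strains separate in this way was not counted in any comparison, so separation is given as a description. For hfb2 the difference was 2.60-fold, at 7503 ± 1584 CPM in Δvps21 and 2888 ± 425 CPM in Rut-C30 (log2 1.38, SE 0.52, 95% interval 0.23 to 2.52, adjusted p = 0.0632). For hfb3 it was 2.40-fold, at 2352 ± 537 CPM in Δvps21 and 982 ± 42.2 CPM in Rut-C30 (SD, n = 3 each; log2 1.26, SE 0.49, 95% interval 0.19 to 2.33, adjusted p = 0.0682). In all, 1 of the 3 tested hydrophobins was called higher and 0 lower, beside 32.5% of all tested genes called, 16.7% higher and 15.8% lower.

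The fit over 9 libraries shares 1 estimate of spread between the strains, and the spread of these genes was largest in Δvps13. In a fit of Δvps21 and Rut-C30 alone, which called 55.4% of all tested genes, both were called (hfb2 log2 1.39, SE 0.19, adjusted p = 2.17e-05; hfb3 log2 1.28, SE 0.18, adjusted p = 2.63e-05). DESeq2, which called 38.2% of all tested genes, also called both (adjusted p = 0.0147 for hfb2 and 0.0235 for hfb3). Both passed when any 1 Δvps13 library was left out of the 9. Fits with 1 library left out called 1705 to 4236 genes, beside 2897 with all 9. Without Δvps13 replicates 1, 2 or 3 the adjusted p was 0.0360, 0.0192 or 0.00537 for hfb2 and 0.0386, 0.0102 or 0.00817 for hfb3. The size of the difference moved little, with log2 1.18 to 1.52 for hfb2 and 1.07 to 1.43 for hfb3 over 19 alternatives.

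**Figure D3:**
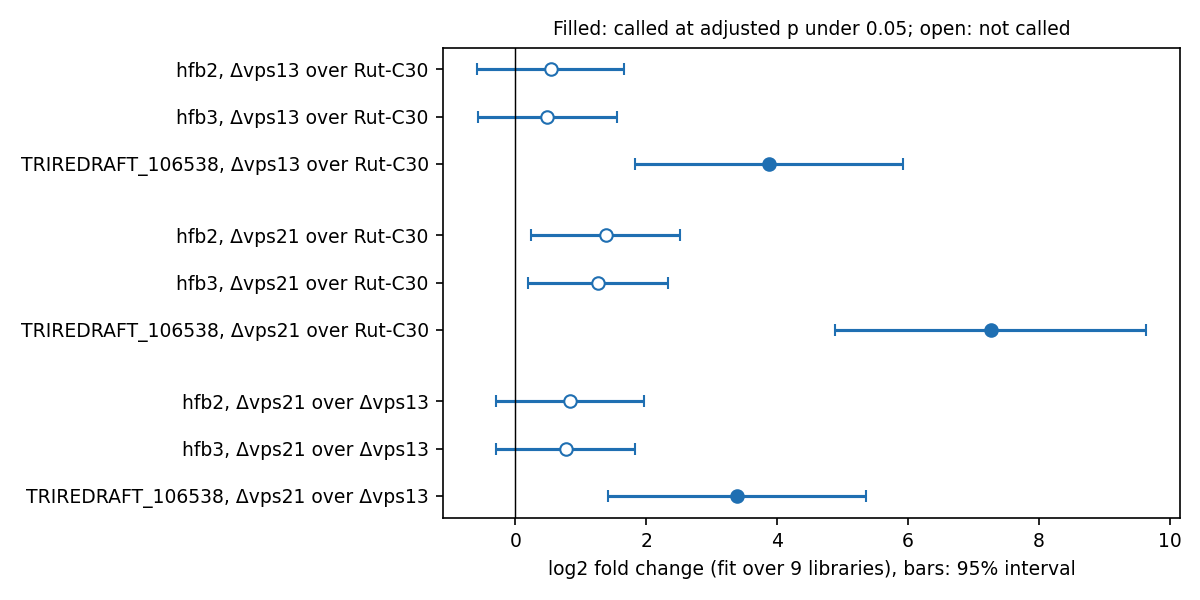
Log2 fold changes of the 3 tested hydrophobins in the 3 comparisons, with 95% intervals from the fit over 9 libraries. TRIREDRAFT_106538 is filled (called) in each comparison; hfb2 and hfb3 are open, with intervals that lie above 0 for Δvps21 over Rut-C30 and cross 0 in the others.

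**Figure D4:**
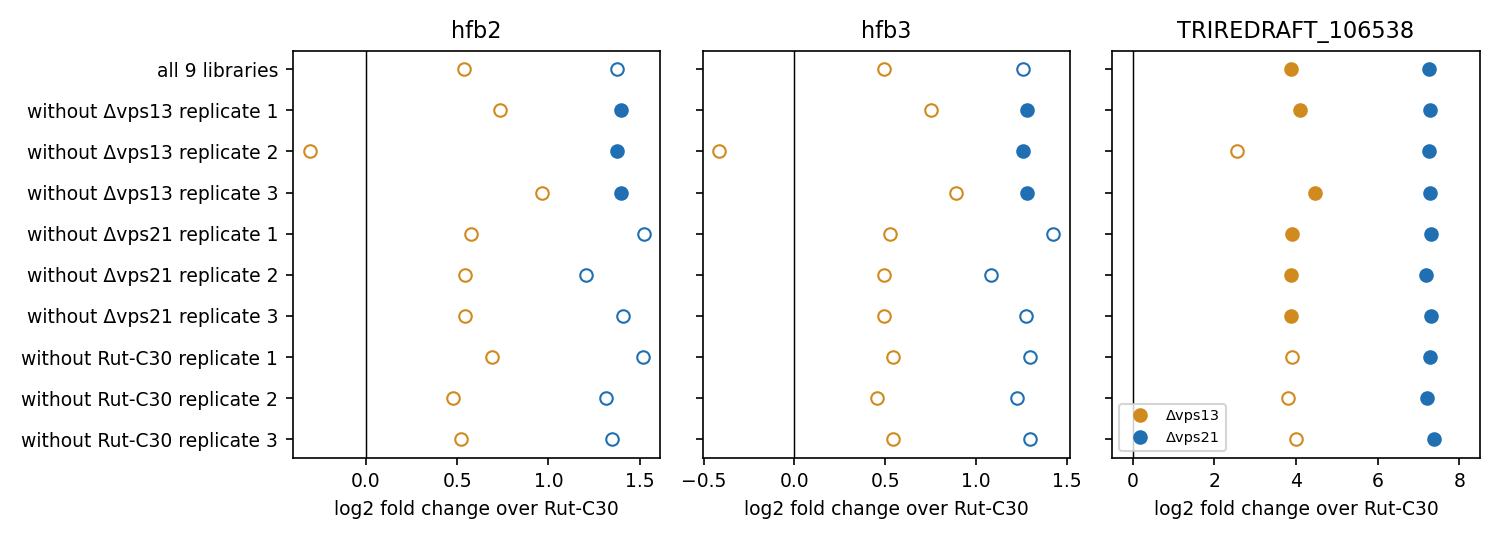
Log2 fold change over Rut-C30 for Δvps13 and Δvps21 with all 9 libraries and with each library left out (filled, called; open, not called). With a library left out, TRIREDRAFT_106538 stays at 7.18 to 7.37 in Δvps21, whereas in Δvps13 hfb2 and hfb3 fall below 0 without Δvps13 replicate 2.

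The direct comparison of Δvps21 with Δvps13 tests whether the deletion strains differ from each other. TRIREDRAFT_106538 was 10.5-fold higher in Δvps21, at 1091 ± 108 CPM in Δvps21 and 104 ± 115 CPM in Δvps13 (SD, n = 3 each; log2 3.39, SE 0.90, adjusted p = 0.0277), with no overlap between the libraries. The groups' values for hfb2 and hfb3 overlapped, and neither was called (hfb2 log2 0.84, SE 0.51, 95% interval -0.29 to 1.97, adjusted p = 0.302; hfb3 log2 0.77, SE 0.48, 95% interval -0.29 to 1.83, adjusted p = 0.314). So 1 of 3 was called higher and 0 lower, beside 15.2% of all tested genes called, 7.68% higher and 7.55% lower. The call of TRIREDRAFT_106538 was lost without Rut-C30 replicate 1 (adjusted p = 0.0515), without Δvps13 replicate 1 (0.0535), without Δvps21 replicates 1, 2 or 3 (0.0623, 0.0725 or 0.0746), and in a fit of the 2 deletion strains alone (0.0874). Without Δvps13 replicate 2 its difference was 26.4-fold, and hfb2 and hfb3 were then called as well (log2 1.69 and 1.67, adjusted p = 0.0295 and 0.0122), whereas without Δvps13 replicate 3 the difference of TRIREDRAFT_106538 was 7.12-fold (adjusted p = 2.62e-04). Fits with 1 library left out called 514 to 2216 genes in this comparison, beside 1356 with all 9.

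The likeness of other genes to each hydrophobin was measured by Pearson's r of log2 CPM over the 9 libraries, among 5775 other genes with a mean of 10 CPM or more. These 9 points fall into 3 strains and share their libraries and scaling, so r is a description. The gene most like hfb2 was hfb3 and the gene most like hfb3 was hfb2 (r = 0.99). After hfb3, hfb2 was most like TRIREDRAFT_68615, described as an amidase-like protein (r = 0.98). After hfb2, hfb3 was most like TRIREDRAFT_60283, a predicted protein (r = 0.98), and among described genes like TRIREDRAFT_120823, described as a cell wall protein (r = 0.97). TRIREDRAFT_120823 had 71.3, 215 and 42.8 FPKM in Δvps13, 135, 206 and 177 FPKM in Δvps21, and 85.2, 109 and 93.1 FPKM in Rut-C30. An r of 0.95 or more was reached by 18 genes with hfb2, by 7 with hfb3 and by 103 with TRIREDRAFT_106538.

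TRIREDRAFT_106538 was less like the other hydrophobins, with r = 0.90 to hfb2 and 0.88 to hfb3. Its closest match was ooc1, described only as a predicted protein (r = 0.999), which had 127, 302 and 6.57 FPKM in Δvps13, 1533, 1885 and 1532 FPKM in Δvps21, and 11.1, 9.48 and 9.59 FPKM in Rut-C30. The ratio of ooc1 to TRIREDRAFT_106538 FPKM was 0.466 to 0.587 in Δvps13, 0.532 to 0.559 in Δvps21 and 0.438 to 0.585 in Rut-C30. Next was TRIREDRAFT_123955, also a predicted protein (r = 0.997). The closest described genes were TRIREDRAFT_72379, a proteinase inhibitor (r = 0.997), and TRIREDRAFT_47268 of glycoside hydrolase family 3, a family that includes beta-glucosidases (r = 0.99). TRIREDRAFT_72379 had 35.6, 96.8 and 3.77 FPKM in Δvps13, 229, 268 and 246 FPKM in Δvps21, and 3.99, 3.70 and 3.81 FPKM in Rut-C30. These 4 genes were picked for following TRIREDRAFT_106538 over the same libraries, so their higher level in Δvps21 comes with the choice and is given as a description, with no test. Over Rut-C30 the log2 difference was 7.34 for ooc1, 5.54 for TRIREDRAFT_123955, 5.99 for TRIREDRAFT_72379 and 2.67 for TRIREDRAFT_47268. Of the 4, TRIREDRAFT_47268 shares the sequence NW_006711154.1 with the hydrophobin, 399646 bases away.

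**Figure D5:**
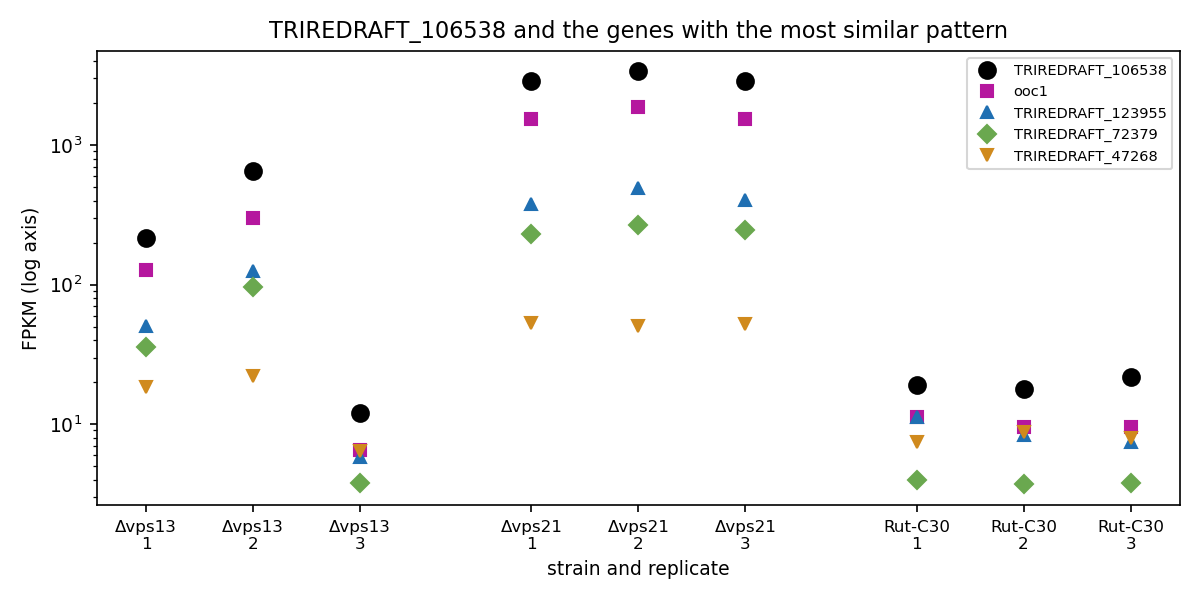
FPKM on a log axis of TRIREDRAFT_106538 in each library, with the 2 genes most like it (ooc1 and TRIREDRAFT_123955) and the 2 most like it among described genes. All 5 are highest in the 3 Δvps21 libraries, intermediate in Δvps13 replicates 1 and 2, and near or below the Rut-C30 levels in Δvps13 replicate 3.

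Genes beside the hydrophobins did not share one pattern. On the left of TRIREDRAFT_106538, the nearest gene is TRIREDRAFT_106537, a predicted protein 3329 bases away, which had 0.242 to 0.509 CPM in Δvps21 and 1.40 to 2.91 CPM in Rut-C30 and fell in Δvps21 (log2 -2.37, SE 0.51, adjusted p = 0.00529). In Δvps21, 3 counts give 0.213 to 0.254 CPM, so this gene passed the filter through the other strains. Its fall rests on few counts and is given as a description. The next gene on that side, 5877 bases away, is the lactate/pyruvate transporter gene TRIREDRAFT_121441, which was chosen here after its values were seen. It rose in Δvps13 (368, 204 and 158 CPM, against 27.3, 32.7 and 33.7 CPM in Rut-C30; log2 2.96, SE 0.31, adjusted p = 9.79e-04) and fell in Δvps21 (2.70, 4.04 and 3.05 CPM; log2 -3.26, SE 0.33, adjusted p = 1.18e-04). The gene beyond it, TRIREDRAFT_121439, a predicted protein 8847 bases away, was also chosen after its values were seen. It was called higher in both strains (log2 1.11, adjusted p = 0.0332 in Δvps13, and log2 1.20, adjusted p = 0.00859 in Δvps21). Its levels were 5.91 to 7.90 CPM in Δvps13, 6.40 to 7.91 CPM in Δvps21 and 2.56 to 3.91 CPM in Rut-C30. On the right, an unnamed gene model 1118 bases away had 2.83 to 12.3 CPM in Δvps13, 9.92 to 11.5 CPM in Δvps21 and 6.56 to 8.02 CPM in Rut-C30.

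The nearest gene on the right of hfb2, 457 bases away on the same strand, is TRIREDRAFT_119991, described as a transcription factor. It had 17.8 to 23.3 CPM in Δvps13, 18.3 to 28.0 CPM in Δvps21 and 19.6 to 24.8 CPM in Rut-C30, so its strains overlapped while those of hfb2 in Δvps21 and Rut-C30 did not. An unnamed gene model 2002 bases to the left of hfb2 had 0.510 to 1.499 CPM in Δvps13, 5.33 to 7.43 CPM in Δvps21 and 1.20 to 1.73 CPM in Rut-C30. It was called higher in Δvps21 than in Rut-C30 (log2 2.14, adjusted p = 0.00242). So was TRIREDRAFT_74559, a predicted protein 2304 bases to the right (log2 1.23, adjusted p = 0.00400). The other genes within 10000 bases of hfb2 were not called in that comparison. Beside hfb3, the serine carboxypeptidase gene TRIREDRAFT_69489, 914 bases to the right, had 27.3 to 37.6 CPM in Δvps13, 21.9 to 31.2 CPM in Δvps21 and 30.1 to 38.1 CPM in Rut-C30. An unnamed gene model 747 bases to the left of hfb3 had counts only in Δvps21 (0.142, 0.404 and 0 CPM) and was not tested. Further out, an unnamed gene model 3028 bases to the right and TRIREDRAFT_82001, 8886 bases to the left, fell in Δvps21 (log2 -2.34, adjusted p = 0.00352, and log2 -0.92, adjusted p = 0.0138). TRIREDRAFT_111776, described by a DNA binding domain and 5859 bases to the left, fell in Δvps13 (log2 -1.56, adjusted p = 0.0127). It was not called in Δvps21 against Rut-C30 (log2 -0.40, adjusted p = 0.328).

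A list of other surface genes held those described as cell wall protein, expansin or cutinase transcription factor, the last a regulator. Of 17 found, 14 were tested. In Δvps13, 2 rose and 0 fell, with a median log2 of 0.03 beside 0.04 over all tested genes. In Δvps21, 3 rose and 1 fell, with a median of 0.26 beside -0.02. These 2 and 4 calls among 14 stand beside 10.4% and 32.5% of all tested genes called in the same comparisons. The Δvps13 count was 4 of 15 tested members without Δvps13 replicate 1 and 6 of 15 without Δvps13 replicate 3. Those fits called 12.5% and 35.8% of all tested genes. The Δvps21 count was 8 and 10 without those libraries and 2 without Δvps21 replicate 3. Over all fits with 1 library left out, 1705 to 4236 genes were called in Δvps21, beside 2897 with all 9. TRIREDRAFT_123659, described as a cell wall protein, had 26.7, 27.7 and 29.6 CPM in Δvps13, 84.5, 81.2 and 69.5 CPM in Δvps21, and 6.19, 5.23 and 4.67 CPM in Rut-C30. It rose 5.20-fold in Δvps13 and 14.6-fold in Δvps21 (log2 2.38, SE 0.20, adjusted p = 3.12e-04, and log2 3.87, SE 0.20, adjusted p = 1.71e-06). TRIREDRAFT_123992, of the expansin group, a family of proteins that loosen plant cell walls, had 7086, 6442 and 11454 CPM in Δvps13, 5322, 5012 and 5168 CPM in Δvps21, and 1759.6, 1542 and 2036 CPM in Rut-C30.

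In all 3 libraries of each deletion strain these surface genes lay above Rut-C30, and TRIREDRAFT_123992 rose 4.68-fold in Δvps13 and 2.90-fold in Δvps21 (log2 2.23, SE 0.33, adjusted p = 0.00432, and log2 1.54, SE 0.32, adjusted p = 0.00479). Both genes kept these calls in all 19 alternatives. Unlike the hydrophobins, both had Δvps13 replicate 3 as the highest of the Δvps13 libraries, although for TRIREDRAFT_123659 those libraries differed little (26.7 to 29.6 CPM). The member that fell in Δvps21 was TRIREDRAFT_104277, a cell wall protein, with 29.3, 32.3 and 147 CPM in Δvps13, 20.5, 22.3 and 18.2 CPM in Δvps21 and 85.4, 63.9 and 84.4 CPM in Rut-C30 (log2 -1.94, SE 0.52, adjusted p = 0.0161, and 0.0541 or 0.0682 without Δvps21 replicate 1 or 3).

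Genes described by sporulation or as a polyketide synthase, the enzyme class that makes spore pigment among other products, numbered 13, of which 11 were tested. In Δvps13, 1 rose and 1 fell (median log2 0.09 beside 0.04 over all tested genes), and in Δvps21, 0 rose and 2 fell (median -0.24 beside -0.02). The 2 calls of 11 in each compare with 10.4% of all tested genes called in Δvps13 and 32.5% in Δvps21, and the Δvps21 share is below that of all genes. With 1 library left out the Δvps13 count was 0, except 3 without Δvps13 replicate 1 and 5 without Δvps13 replicate 3. Those 2 fits called 12.5% and 35.8% of all tested genes. The Δvps21 count was 4 without any 1 Δvps13 library and 1 without Rut-C30 replicate 1, Rut-C30 replicate 3 or Δvps21 replicate 2. Such fits called 1705 to 4236 genes in Δvps21. The sporulation transcription factor gene TRIREDRAFT_112554 had 79.2, 113 and 83.8 CPM in Δvps13 and 47.9, 62.0 and 58.4 CPM in Rut-C30 (log2 0.72, SE 0.20, adjusted p = 0.0423). In Δvps21 it had 80.6, 76.9 and 84.3 CPM and was not called over Rut-C30 (log2 0.52, SE 0.20, adjusted p = 0.0615). The polyketide synthase gene TRIREDRAFT_106272 was lower in both, at 29.3, 27.8 and 24.1 CPM in Δvps13, 23.5, 23.1 and 22.8 CPM in Δvps21, and 44.2, 41.4 and 38.9 CPM in Rut-C30 (log2 -0.62, SE 0.17, adjusted p = 0.0455 in Δvps13, and log2 -0.84, SE 0.17, adjusted p = 0.0043 in Δvps21). The 2 calls in Δvps13 held without Δvps13 replicate 1 or 3 and were lost without any other library (adjusted p = 0.0635 to 0.152 for TRIREDRAFT_112554 and 0.0678 to 0.161 for TRIREDRAFT_106272). Both were also lost in a fit of the 2 groups alone (0.118 for TRIREDRAFT_112554 and 0.125 for TRIREDRAFT_106272), with library totals only (0.304 and 0.0627) and with the replicate block (0.0539 and 0.0642). That of TRIREDRAFT_106272 was lost as well by limma on FPKM (0.112) and with no filter (0.0589). The other gene that fell in Δvps21 was the polyketide synthase gene TRIREDRAFT_73621, at 0.853, 0.565 and 0 CPM in Δvps21 and 3.92, 2.51 and 3.09 CPM in Rut-C30 (adjusted p = 0.0206). That call was lost (0.0690, 0.0515 and 0.0570) without Rut-C30 replicate 1, Rut-C30 replicate 3 and Δvps21 replicate 2.

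Light controls conidiation in Trichoderma, and 8 genes were described by light or photolyase terms, all of them tested. In Δvps13, 0 rose and 1 fell (median log2 0.03 beside 0.04), and in Δvps21, 1 rose and 1 fell (median 0.06 beside -0.02). The 1 and 2 calls of 8 are near or below the 10.4% and 32.5% of all tested genes called in the same comparisons. Without Δvps13 replicate 3 both counts were 4, in a fit that called 35.8% of all tested genes in Δvps13. Over the fits with 1 library left out, 1705 to 4236 genes were called in Δvps21, beside 2897 with all 9. The Δvps13 count was 0 without any other library but Δvps13 replicate 2. The photolyase gene phr1, for an enzyme that repairs ultraviolet damage to DNA, had 32.9, 33.8 and 16.4 CPM in Δvps13, 46.8, 34.1 and 37.6 CPM in Δvps21, and 10.05, 11.03 and 18.8 CPM in Rut-C30. It rose in Δvps21 (log2 1.57, SE 0.32, adjusted p = 0.00434). The gene that fell in both, TRIREDRAFT_59726, described as a photolyase, had 57 counts over all 9 libraries and passed the filter only through Rut-C30, so its direction follows from the filter and supports nothing. It had 0.0637, 0.353 and 0 CPM in Δvps13, 0, 0 and 0.170 CPM in Δvps21, and 1.20, 0.907 and 1.36 CPM in Rut-C30 (adjusted p = 0.0481 in Δvps13 and 0.00734 in Δvps21). Its call in Δvps13 held only without Δvps13 replicate 2 or 3 among the 9 fits that leave out 1 library (adjusted p = 0.0632 to 0.141 in the other 7), and was lost with no filter (0.0609), in the 2 groups alone (0.0746), with the replicate block (0.0789) and with a robust dispersion (0.0506). The photoreceptor genes blr1 and blr2 and the light regulator gene env1 were not called in either strain (blr1 log2 0.72 in Δvps13 and 0.23 in Δvps21; blr2 -0.31 and -0.53; env1 -0.34 and -0.87).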

How the data were processed

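The authors deposited a table of whole-number counts per gene and a table of FPKM, with 1 column per library. Per the submitters' processing notes, HISAT2 2.0.5 and featureCounts 1.5.0-p3 were used; the genome build is not given in the sources used here. Within each library the deposited FPKM are the counts per gene length divided by 1 library constant, so both tables hold the same measurement. Of 10348 gene identifiers, 9116 were found in a RefSeq gene table for strain QM6a, and the 4 hydrophobins have the same start and end there. No strand-marking step is named in the labels.

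Counts were filtered by edgeR filterByExpr (minimum count 10; 8906 genes left), then scaled by TMM. The quasi-likelihood model gave each strain 1 mean and left 6 residual degrees of freedom. Adjusted p values are Benjamini-Hochberg values over the tested genes, and 95% intervals use the fit's total degrees of freedom. Each SE was worked back from the test, as the absolute log2 difference divided by the square root of the quasi-likelihood F. The intervals are built from that SE, which does not follow the spread within a single strain. CPM are counts scaled to a common library size after TMM. The script was tested on simulated data. The members and the gene lists were chosen with earlier results of these data known. All hydrophobins were named, with the genes most like them, their nearest neighbours, and up to 3 called members of each list by lowest p. Further neighbours within 10000 bases were named after their values were seen. Replicates did not hold identical counts.

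Alternatives were DESeq2, limma on log2(FPKM + 1), fits of 2 groups alone, median-ratio size factors, library totals only, no filter, a filter of 10 CPM in 3 libraries, an added absolute log2 of 1, each library left out in turn, and a block for the replicate number. A robust dispersion was added after seeing the data. Tools were edgeR 4.0.16, DESeq2 1.42.0 and limma 3.58.1 under R 4.3.3.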

Additional observations from a re-analysis of the deposited data

How the results depend on the processing

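In Δvps13 against Rut-C30, 926 genes were called, against 1620 by DESeq2, 298 in the 2 groups alone and 165 to 3233 with 1 library left out. The hydrophobin count of 1 became 0 by limma on FPKM, in the 2 groups alone and with the replicate block, and was 0 to 1 with 1 library left out. TRIREDRAFT_106538 was not called by limma (log2 2.58), in the 2 groups alone (3.88) or with the replicate block (3.32), and ranged from 2.55 to 4.45 with 1 library left out. That range was -0.31 to 0.97 for hfb2 and -0.41 to 0.89 for hfb3, both below 0 without Δvps13 replicate 2. In Δvps21 against Rut-C30, 2897 genes were called, against 3398 by DESeq2, 4889 in the 2 groups alone and 1705 to 4236 with 1 library left out. The hydrophobin count of 1 became 3 by DESeq2 and in the 2 groups alone, and was 1 to 3 with 1 library left out. By DESeq2 the log2 values were 1.39 for hfb2 and 1.27 for hfb3, in the 2 groups alone 1.39 and 1.28, and with 1 library left out 1.20 to 1.52 and 1.08 to 1.43; TRIREDRAFT_106538 stayed at 7.18 to 7.37. In Δvps21 against Δvps13, 1356 genes were called, against 612 in the 2 groups alone and 514 to 2216 with 1 library left out. The hydrophobin count of 1 became 0 in the 2 groups alone, where TRIREDRAFT_106538 had log2 3.37, and was 0 to 3 with 1 library left out, with log2 2.83 to 4.72 for TRIREDRAFT_106538, 0.43 to 1.69 for hfb2 and 0.39 to 1.67 for hfb3. The causes were not tested.

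Scaled by library totals only, the median of all genes was -0.25 in Δvps13 and -0.20 in Δvps21 against Rut-C30, and the calls split 173 higher and 1089 lower (503 and 423 with TMM) in Δvps13, 872 and 1678 (1489 and 1408) in Δvps21, and 691 and 395 (684 and 672) in Δvps21 against Δvps13. No hydrophobin changed its call or direction under either scaling. Replicate numbers are shared between strains, and deviations of same-numbered libraries correlated above 0.1 in 2 of 9 pairs (-0.095 to 0.45). The scaling factor fell from replicate 1 to 3 in each strain (1.21, 0.841 and 0.699 in Δvps13, 1.07, 0.973 and 0.938 in Δvps21, and 1.19, 1.12 and 1.07 in Rut-C30). The ratio of hfb2 to hfb3 fell in the same order in each strain. No label says that the numbers mark a batch, so they were not taken as pairs, and a shared batch was not tested apart from the block. With the block, TRIREDRAFT_106538 had an adjusted p of 0.0606 in Δvps13. With the replicate block 807, 2879 and 1289 genes were called in the 3 comparisons as ordered here. Of 171 counts of list members under alternatives, 61 moved by over 1.5 times. Depth limits hfb1 alone among the hydrophobins.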
